A study of Mus musculus with 13 samples.

Results

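The D-type cyclins, their kinase partners, the RB family and the Myc genes were followed as a set of 10 genes chosen by name: Ccnd1, Ccnd2 and Ccnd3, Cdk4 and Cdk6, Rb1, Rbl1 and Rbl2, and Myc and Mycn. All 10 of the 19937 genes measured here were present, each with 1 probe set. Expression was profiled on 13 whole-transcript mouse arrays in 6 groups, in a study that asked how mTORC1 activity bears on the growth arrest of melanocytes with oncogenic Braf. Of these, 3 groups were melanocytes purified by fluorescence-activated sorting: Cdkn2a/Braf cells at day 19, before growth arrest (2 arrays), Cdkn2a/Braf cells at day 50, after growth arrest (2 arrays), and Cdkn2a-only cells at day 19 with wild-type Braf (2 arrays). The other groups were uncultured tissue. They comprised 3 arrays of melanocytic proliferations, pooled, with the Lkb1 and Braf alleles, and 2 arrays each of melanoma of the genotypes Cdkn2a/Braf and Cdkn2a/Braf/Lkb1. Every group except the proliferations therefore carried the Cdkn2a alteration, and every group except the Cdkn2a-only cells carried the Braf allele. The allele of each gene, the driver of recombination and the age of the mice that gave the tissue are not given in the sources used here, and neither is the number of mice in each sample.

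D-type cyclins bind Cdk4 or Cdk6 and carry growth factor signals, among them those of the Ras, Raf and ERK cascade, into the cell cycle. The kinases phosphorylate the pocket proteins Rb1 (pRB), Rbl1 (p107) and Rbl2 (p130), which release E2F factors that switch on genes of DNA replication. Rbl2 is the pocket protein of resting cells, Rbl1 is itself an E2F target, and p16INK4a, a product of Cdkn2a, blocks Cdk4 and Cdk6. Myc and Mycn encode transcription factors that pair with Max and bind E-boxes in genes of growth and ribosome production. In melanoma, Ccnd1 and Cdk4 are known as oncogenes and Cdkn2a as a familial tumour suppressor.

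Reference promoters were read for the members to show the letters that the E2F and Myc factors are known to bind. RefSeq windows of 300 bases (250 before to 50 after a transcript start, GRCm38.p6) were found for 6 of the 10 members: Ccnd3, Cdk4, Cdk6, Rbl1, Rbl2 and Mycn. They were searched on both strands for the E-box CACGTG and for the E2F sites TTTCGCGC and TTTGGCGC. The 3 windows printed here are those with an E2F site and the one with most E-boxes, on the strand of the gene and with the matches in capitals. They are Cdk4 (chr10:127063285-127063584, plus strand), Rbl1 (chr2:157204485-157204784, minus strand) and Mycn (chr12:12941787-12942086, minus strand).
Cdk4: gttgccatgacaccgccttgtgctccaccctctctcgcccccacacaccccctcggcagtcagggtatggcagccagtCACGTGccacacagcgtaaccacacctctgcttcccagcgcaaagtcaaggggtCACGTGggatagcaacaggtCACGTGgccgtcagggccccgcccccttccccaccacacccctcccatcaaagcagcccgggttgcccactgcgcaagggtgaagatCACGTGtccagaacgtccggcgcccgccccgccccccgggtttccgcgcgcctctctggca
Rbl1: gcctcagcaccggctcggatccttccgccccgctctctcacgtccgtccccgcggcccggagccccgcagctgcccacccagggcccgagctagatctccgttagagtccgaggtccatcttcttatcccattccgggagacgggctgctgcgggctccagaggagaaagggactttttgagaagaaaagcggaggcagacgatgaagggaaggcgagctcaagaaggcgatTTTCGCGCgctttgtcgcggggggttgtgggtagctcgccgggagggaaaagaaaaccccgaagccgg
Mycn: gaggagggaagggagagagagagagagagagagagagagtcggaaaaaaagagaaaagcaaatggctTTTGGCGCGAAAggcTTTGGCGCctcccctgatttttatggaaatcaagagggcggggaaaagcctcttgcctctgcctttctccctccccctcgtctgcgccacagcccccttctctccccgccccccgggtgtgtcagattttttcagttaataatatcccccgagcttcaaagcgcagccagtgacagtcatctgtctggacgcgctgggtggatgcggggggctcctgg
The Cdk4 window held 4 E-boxes, the Cdk6 window held 1, and 7.15% of all 32851 promoter windows held at least 1. At least 4 were found in 0.0244% of the windows. The Rbl1 window held 1 E2F site and the Mycn window held 3, of which a pair overlap, while 0.813% of all windows held at least 1. These matches are letters in a window and were not tested for binding.

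**Figure D1:**
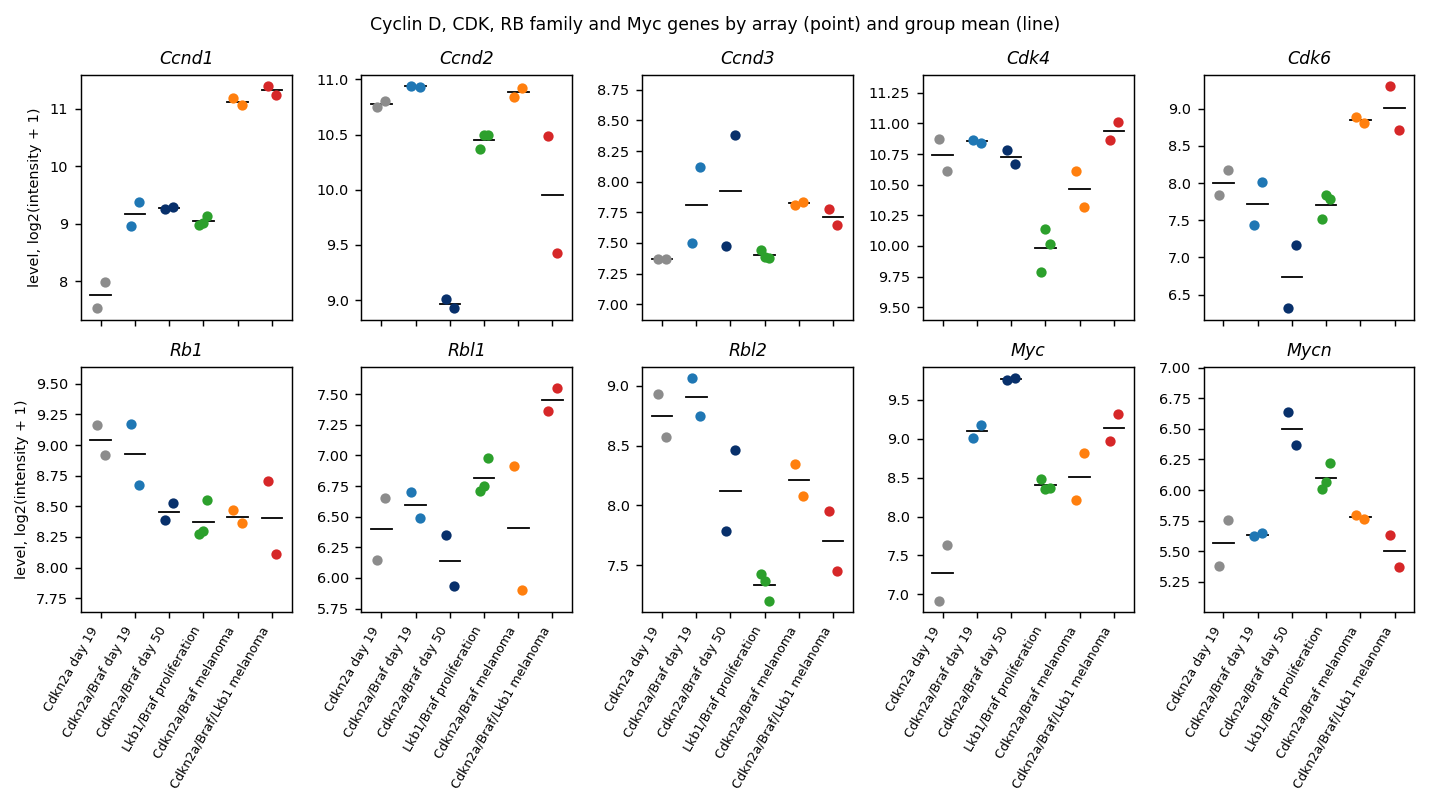
Levels of the 10 genes, as log2(intensity + 1), on each of the 13 arrays (points) with the group mean (line), 1 panel per gene and each panel on its own scale. Ccnd1 lies above 11 on all 4 melanoma arrays and below 9.5 on the others, Ccnd2 is lowest on the 2 day 50 arrays, and Myc is lowest on the 2 Cdkn2a-only arrays.

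Levels are given as log2(intensity + 1), in which 1 unit is a doubling, and differences are on the same log2 scale with the standard error (SE) of the limma model. A difference was called where the Benjamini-Hochberg adjusted p over all 19937 genes was under 0.05. Levels were compared between groups for 1 gene at a time, since array levels of different genes are not on one scale. In bulk samples, fewer cells of a type and less RNA per cell cannot be told apart. The spread over genes also differed between arrays: the interquartile range of the log2 levels was 1.93 and 1.94 at day 50, between 2.00 and 2.11 in the proliferations, and between 2.45 and 2.89 on the other arrays. Scaling the arrays to a common range therefore moved some differences.

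Ccnd1, the D cyclin most directly driven by ERK signalling, was high in melanoma and low without the Braf allele. Its level was 7.52 and 7.98 in Cdkn2a-only cells at day 19, 8.96 and 9.38 in Cdkn2a/Braf cells at day 19, and 9.25 and 9.29 at day 50. It was 8.97, 9.02 and 9.13 in the Lkb1/Braf proliferations, 11.06 and 11.19 in Cdkn2a/Braf melanoma, and 11.24 and 11.40 in Cdkn2a/Braf/Lkb1 melanoma. All 4 melanoma arrays were above every other array, both Cdkn2a-only arrays were below every other array, and the day 19 Braf cells, day 50 cells and proliferations lay together between them. The order of the group means ran from the Cdkn2a/Braf/Lkb1 melanomas through the Cdkn2a/Braf melanomas, day 50 cells, day 19 Cdkn2a/Braf cells and proliferations to the Cdkn2a-only cells, and spanned 3.57.

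With the Braf allele, Ccnd1 was higher at day 19 by 1.42 (SE 0.18, adjusted p = 0.012), a 2.67-fold difference. At day 50 it differed from day 19 by 0.11 (95% interval -0.30 to 0.51, adjusted p = 0.655), so no loss of Ccnd1 messenger RNA was detectable in the growth-arrested cells, and with a common interquartile range the difference was 0.85 (adjusted p = 0.00837). Ccnd1 exceeded the proliferations by 2.08 (SE 0.16, adjusted p = 5.14e-05) in Cdkn2a/Braf melanoma and by 2.28 (SE 0.16, adjusted p = 2.06e-05) in Cdkn2a/Braf/Lkb1 melanoma. The melanoma calls held under every alternative run, although scaling to a common interquartile range reduced the differences to 1.55 and 1.26. The call for the Braf allele was lost without Cdkn2a/Braf day 19 replicate 2 (1.21, adjusted p = 0.128), without Cdkn2a-only replicate 1 (1.19, adjusted p = 0.0509) and in a fit on sorted cells alone (adjusted p = 0.45).

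Ccnd2, a D cyclin with its own pattern of tissue expression, was lowest in the arrested cells. It measured 10.75 and 10.81 in Cdkn2a-only cells, 10.93 and 10.94 in Cdkn2a/Braf cells at day 19, and 8.92 and 9.01 at day 50. The proliferations had 10.37, 10.49 and 10.50, the Cdkn2a/Braf melanomas 10.84 and 10.92, and the Cdkn2a/Braf/Lkb1 melanomas 9.42 and 10.49. The day 50 arrays were below every other array, and the Cdkn2a/Braf/Lkb1 melanomas were the group whose replicates lay farthest apart.

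Between day 19 and day 50 Ccnd2 fell by 1.97 (SE 0.26, adjusted p = 0.000751), a 3.91-fold difference that was called under every alternative run and measured -1.15 with a common interquartile range. Ccnd2 was also higher than at day 50 in the Cdkn2a/Braf melanomas, by 1.92 (SE 0.26, adjusted p = 0.00083), and in the proliferations, by 1.49 (SE 0.24, adjusted p = 0.0026). Those last contrasts set tissue against sorted cells, so state and material cannot be told apart. The Braf allele at day 19 gave a Ccnd2 difference of 0.16 (95% interval -0.42 to 0.74). Between the melanoma genotypes Ccnd2 differed by -0.93 (SE 0.26, adjusted p = 0.0912). That difference rested on 1 array: without Cdkn2a/Braf/Lkb1 replicate 1 it was -1.46 (adjusted p = 0.00139), and without replicate 2 it was -0.40. With a common interquartile range it was -1.22 (adjusted p = 0.0175). Against the proliferations the Cdkn2a/Braf/Lkb1 melanomas differed in Ccnd2 by -0.50 (adjusted p = 0.117), which became -0.94 (adjusted p = 0.0185) with quantile normalization, -1.54 (adjusted p = 0.000179) with a common interquartile range, and 0.0328 without Cdkn2a/Braf/Lkb1 replicate 2.

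Ccnd3 showed no called difference in any of the 7 comparisons, and its group means spanned 0.56, the narrowest span of the 10 genes. Its arrays ranged from 7.37 to 8.38, and the highest values were replicate 2 at day 50 (8.38) and replicate 2 of the day 19 Cdkn2a/Braf cells (8.12). The other replicate of each of those groups lay at 7.47 and 7.50, so replicates of those groups differed by more than the group means did.

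Cdk4, the kinase partner of the D cyclins, was lowest in the proliferations. Its level was 10.61 and 10.87 in Cdkn2a-only cells, 10.84 and 10.87 in Cdkn2a/Braf cells at day 19, and 10.67 and 10.78 at day 50. It was 9.79, 10.02 and 10.14 in the proliferations, 10.32 and 10.61 in Cdkn2a/Braf melanoma, and 10.87 and 11.01 in Cdkn2a/Braf/Lkb1 melanoma. All 3 proliferation arrays were below every other array. Cdk4 exceeded its level in the proliferations by 0.48 (SE 0.15, adjusted p = 0.0408) in Cdkn2a/Braf melanoma and by 0.96 (SE 0.15, adjusted p = 0.000946) in Cdkn2a/Braf/Lkb1 melanoma. With a common interquartile range both turned in sign, to -0.17 (adjusted p = 0.493) and -0.15 (adjusted p = 0.518), so the direction for Cdk4 depends on how the arrays are scaled. With quantile normalization the difference for Cdkn2a/Braf melanoma was 0.098 and was not called (adjusted p = 0.733). The first call was also lost without either Cdkn2a/Braf melanoma array and without proliferation replicate 1 or 3 (differences of 0.33 to 0.63 over the arrays left out). At day 50 Cdk4 differed from day 19 by -0.13 (95% interval -0.49 to 0.23), and with a common interquartile range by 1.07 (adjusted p = 0.00247).

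Cdk6, the other kinase partner, was highest in melanoma and lowest after growth arrest. It measured 7.83 and 8.18 in Cdkn2a-only cells, 7.43 and 8.02 in Cdkn2a/Braf cells at day 19, and 6.31 and 7.16 at day 50. The proliferations had 7.51, 7.78 and 7.83, the Cdkn2a/Braf melanomas 8.80 and 8.89, and the Cdkn2a/Braf/Lkb1 melanomas 8.71 and 9.31. The melanoma arrays were above all others, the day 50 arrays below all others, and the 3 groups between them overlapped.

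Cdk6 exceeded the proliferations by 1.14 (SE 0.28, adjusted p = 0.0169) in Cdkn2a/Braf melanoma and by 1.30 (SE 0.28, adjusted p = 0.00529) in Cdkn2a/Braf/Lkb1 melanoma. From day 19 to day 50 it fell by 0.99 (SE 0.30, adjusted p = 0.04). The last call is weak: it was lost with quantile normalization (-0.83, adjusted p = 0.129), with a common interquartile range (adjusted p = 0.0593), in sorted cells alone (adjusted p = 0.12) and without 3 of the 4 arrays in turn, over which the difference ranged from -1.41 to -0.56. The melanoma calls were lost with quantile normalization (adjusted p = 0.125 and 0.0783). Without Cdkn2a/Braf/Lkb1 replicate 1 the second was 1.00 (adjusted p = 0.0614), and the first was lost without either Cdkn2a/Braf melanoma array or proliferation replicate 1, over a range of 1.04 to 1.20.

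**Figure D2:**
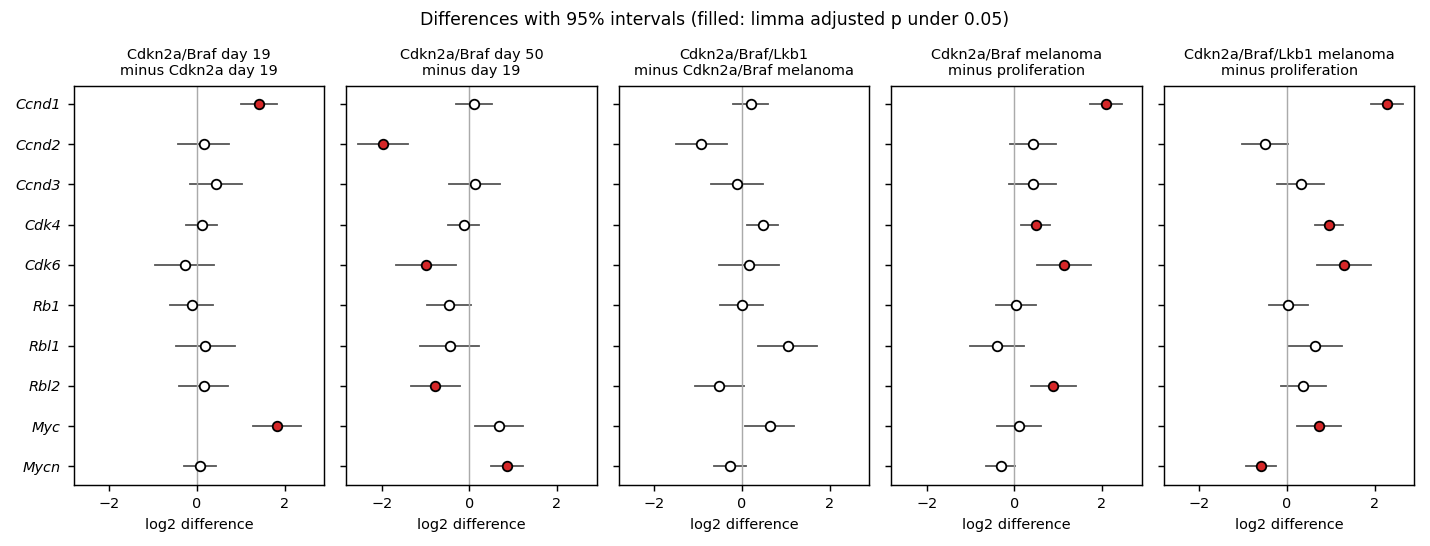
Log2 differences of the 10 genes in 5 comparisons (points) with 95% intervals (bars); filled points have a limma adjusted p under 0.05. Ccnd1 and Myc are the filled points for the Braf allele at day 19, Ccnd2 has the lowest value at day 50, and Ccnd1 has the highest value in both comparisons of melanoma with proliferation.

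Of the pocket proteins, Rb1 showed no called difference in any comparison. Its arrays ranged from 8.11 to 9.17 and its group means spanned 0.67. The day 19 arrays of both genotypes had 8.67 to 9.17 and the day 50 arrays 8.39 and 8.52, a difference within the Cdkn2a/Braf genotype of -0.47 (95% interval -0.96 to 0.03, adjusted p = 0.133).

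Rbl1 was highest in Cdkn2a/Braf/Lkb1 melanoma. Its level was 7.36 and 7.55 there, 5.90 and 6.92 in Cdkn2a/Braf melanoma, 6.71, 6.75 and 6.98 in the proliferations, 6.15 and 6.66 in Cdkn2a-only cells, 6.49 and 6.70 in Cdkn2a/Braf cells at day 19, and 5.93 and 6.35 at day 50. Both Cdkn2a/Braf/Lkb1 melanoma arrays were above every other array, whereas the Cdkn2a/Braf melanoma pair spread over nearly the whole range of the other groups. The difference between the melanoma genotypes was 1.05 (95% interval 0.38 to 1.72) and did not pass the test (adjusted p = 0.0985). Without Cdkn2a/Braf melanoma replicate 1 it was 1.55 (adjusted p = 0.0126). Mitosis markers moved with Rbl1 between those arrays: their summed intensity was 3203 in Cdkn2a/Braf melanoma replicate 1 (Rbl1 6.92) and 1302 in replicate 2 (Rbl1 5.90), against 4466 and 6266 in the Cdkn2a/Braf/Lkb1 melanomas. Keratinocyte markers summed to 443 in replicate 1 and 5442 in replicate 2, and the part of either in the Rbl1 values was not tested.

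Rbl2 was lowest in the proliferations, with 7.20, 7.36 and 7.42. It measured 8.57 and 8.93 in Cdkn2a-only cells, 8.74 and 9.07 in Cdkn2a/Braf cells at day 19, 7.78 and 8.46 at day 50, 8.08 and 8.35 in Cdkn2a/Braf melanoma, and 7.45 and 7.95 in Cdkn2a/Braf/Lkb1 melanoma. The 3 proliferation arrays were below all others, and the day 19 arrays of both genotypes were above all others. Between day 19 and day 50 Rbl2 fell by 0.78 (SE 0.25, adjusted p = 0.0447). The Cdkn2a/Braf melanomas had 0.88 more than the proliferations (SE 0.23, adjusted p = 0.0214), while the Cdkn2a/Braf/Lkb1 melanomas differed from them by 0.37 (95% interval -0.14 to 0.88). Both Rbl2 calls were fragile: the day 50 difference was -0.29 with quantile normalization and -0.31 with a common interquartile range, neither called, and was lost without 3 of the 4 arrays in turn (range -1.12 to -0.45). The melanoma call was lost with quantile normalization (adjusted p = 0.0742) and without 4 of the 5 arrays in turn (range 0.75 to 1.02).

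Myc was lowest without the Braf allele and highest in the arrested cells. Its level was 6.92 and 7.64 in Cdkn2a-only cells, 9.02 and 9.18 in Cdkn2a/Braf cells at day 19, and 9.76 and 9.78 at day 50. The proliferations had 8.35, 8.37 and 8.49, the Cdkn2a/Braf melanomas 8.22 and 8.81, and the Cdkn2a/Braf/Lkb1 melanomas 8.97 and 9.32. The Cdkn2a-only arrays were below and the day 50 arrays above every other array. The day 19 Cdkn2a/Braf cells lay within the range of the Cdkn2a/Braf/Lkb1 melanomas, and the proliferations within that of the Cdkn2a/Braf melanomas.

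At day 19 Myc was higher with the Braf allele by 1.82 (SE 0.25, adjusted p = 0.0154), a 3.53-fold difference. It was 0.67 higher on average at day 50 than at day 19 (95% interval 0.12 to 1.22), which did not pass the test (adjusted p = 0.0682); with quantile normalization the difference was 1.13 (adjusted p = 0.0142) and with a common interquartile range 1.52 (adjusted p = 0.00216). The difference was above 0 under every alternative run. Compared with day 50, Myc was lower in the Cdkn2a/Braf melanomas (difference -1.26, SE 0.25, adjusted p = 0.00584) and in the proliferations (difference -1.37, SE 0.23, adjusted p = 0.00307), again tissue against sorted cells. The Cdkn2a/Braf/Lkb1 melanomas exceeded the proliferations by 0.74 (SE 0.23, adjusted p = 0.026). That call was lost with quantile normalization (0.15) and a common interquartile range (0.16), without either Cdkn2a/Braf/Lkb1 array, and without proliferation replicate 2 or 3 (range 0.57 to 0.91). The day 19 call was lost in sorted cells alone (adjusted p = 0.382) and without either Cdkn2a/Braf array (adjusted p = 0.0733 and 0.177) or Cdkn2a-only replicate 1 (1.46, adjusted p = 0.0552), with every difference between 1.46 and 2.18.

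Mycn, the Myc gene known from the neural lineage, was dim and followed another order. It measured 5.38 and 5.76 in Cdkn2a-only cells, 5.62 and 5.65 in Cdkn2a/Braf cells at day 19, and 6.37 and 6.64 at day 50. The proliferations had 6.01, 6.06 and 6.22, the Cdkn2a/Braf melanomas 5.76 and 5.80, and the Cdkn2a/Braf/Lkb1 melanomas 5.38 and 5.63. The day 50 arrays were above all others, the proliferations came next without overlap, and all arrays of the other groups lay between 5.38 and 5.80. Mycn rose by 0.87 (SE 0.16, adjusted p = 0.00514) from day 19 to day 50, and was lower in the Cdkn2a/Braf/Lkb1 melanomas than in the proliferations (difference -0.59, SE 0.15, adjusted p = 0.0114). In sorted cells alone the first had an adjusted p of 0.0556. The second shrank to -0.28 with quantile normalization and -0.27 with a common interquartile range and was not called under either, nor without Cdkn2a/Braf/Lkb1 replicate 2 (adjusted p = 0.0834).

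In the contrast of day 50 with day 19 in Cdkn2a/Braf cells, Ccnd2, Cdk6 and Rbl2 were called lower and Mycn higher. Both arrested arrays are from day 50 and both arrays before arrest from day 19, so day and growth arrest cannot be told apart. Ccnd1 and Myc had no called difference. Only the Ccnd2 call held under every alternative run, and the Cdk6 and Rbl2 calls were lost under several. The Mycn call was lost in sorted cells alone. The calls were 1 higher and 3 lower of 10 members, where 25.6% of all genes were called, 11.1% higher and 14.5% lower. The median difference was -0.29 for the members and 0.17 for all genes. The composition of the sorted samples also differed: summed melanocyte markers went from 42140 to 44823 at day 19 to 24152 to 32030 at day 50, and keratinocyte markers from 1866 to 2074 to 10131 to 14231. Of the lists, 4 of 8 melanocyte markers were called lower, and 2 of 6 keratinocyte, 5 of 6 fibroblast and 5 of 5 endothelial markers higher. Their part in the differences of the members was not tested. The mitosis markers summed to 1322 to 1567 at day 19 and 1121 to 1215 at day 50, and none of the 9 measured was called by limma.

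The Braf allele, compared at day 19 in Cdkn2a-altered sorted cells, was marked by higher Ccnd1 and Myc. These were 2 of 10 members called, both higher, where 0.291% of all genes were called by limma, 0.236% higher and 0.0552% lower. Both calls were lost in sorted cells alone and with some single arrays left out. The other 8 members had differences from -0.28 (Cdk6) to 0.44 (Ccnd3), with intervals that all included 0. No marker list held a called gene, and the summed melanocyte markers were 44740 to 45747 without and 42140 to 44823 with the allele. No member of the kinase or pocket protein groups was called for the allele, and their intervals allow differences of up to 0.87 for Rbl1 and -0.96 for Cdk6. For the uncalled cyclin Ccnd3 the interval allows up to 1.03.

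The Lkb1 alteration, compared between the melanoma genotypes, gave 0 of 10 members past the limma test, where 2.56% of all genes were called, 1.83% higher and 0.732% lower. At an unadjusted p under 0.05 there were 4 members, Ccnd2 (lower) and Rbl1, Cdk4 and Myc (higher), where 19.2% of all genes passed the same threshold. With an adjusted p of 0.145, Cdk4 differed by 0.48 (95% interval 0.12 to 0.83), and Myc by 0.63 (0.08 to 1.18, adjusted p = 0.202). Ccnd1 differed by 0.20 (95% interval -0.20 to 0.60) and Cdk6 by 0.16 (-0.51 to 0.84). Macrophage markers summed to 4655 to 5630 with the Lkb1 alteration and 2277 to 2438 without it, and 3 of 9 mitosis markers were called higher. Their part was not tested.

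Ccnd1, Cdk4 and Cdk6 were called higher than in the proliferations in both melanoma genotypes. Of these only the Ccnd1 calls held under every alternative run. The Cdk4 direction turned with a common interquartile range, and both Cdk6 calls were lost with quantile normalization. In Cdkn2a/Braf/Lkb1 melanoma, which shares the Lkb1 and Braf alleles with the proliferations, 4 members were called higher (Ccnd1, Cdk4, Cdk6 and Myc) and 1 lower (Mycn) where 40.6% of all genes were called, 20% higher and 20.6% lower. In Cdkn2a/Braf melanoma 4 members were called higher (Ccnd1, Cdk4, Cdk6 and Rbl2) and 0 lower, where 21.5% were called, 12.6% higher and 8.88% lower. Both comparisons share the 3 proliferation arrays. The tissues held very different cells: melanocyte markers summed to 3268 to 3678 in the proliferations, 573 to 998 in Cdkn2a/Braf melanoma and 502 to 569 in Cdkn2a/Braf/Lkb1 melanoma, and keratinocyte markers to 17678 to 18858, 443 to 5442 and 407 to 958. The melanocyte enzyme gene Tyr measured 6.18 to 6.67 in the proliferations but 4.34 to 4.45 in Cdkn2a/Braf and 3.99 to 4.33 in Cdkn2a/Braf/Lkb1 melanoma, near the bottom of the scale, so Tyr does not bear out the melanocytic label of the tumours. Tyr was the dimmest of the 8 melanocyte markers there. Pmel had means of 5.95 and 6.15 in the 2 genotypes against 8.16 in the proliferations, and Mlana 6.73 and 6.86 against 10.25. Sox10, a factor of the melanocyte lineage, ranged from 7.05 to 8.13 in Cdkn2a/Braf melanoma, 5.97 to 6.44 in Cdkn2a/Braf/Lkb1 melanoma and 7.04 to 7.43 in the proliferations, and no marker was at 0. In the melanomas against the proliferations 6 of 8 melanocyte markers were called lower without and 7 of 8 with the Lkb1 alteration, and 5 and 6 of 6 keratinocyte markers. Without the alteration 1 of 6 fibroblast and 2 of 5 endothelial markers were called higher, and 1 of 5 macrophage and 3 of 5 T cell markers lower. With it 4 of 6 fibroblast, 3 of 5 endothelial, 3 of 5 macrophage and 1 of 5 T cell markers were called higher, and 1 fibroblast and 2 T cell markers lower. Mitosis markers summed to 2522 to 3238 in the proliferations, 1302 to 3203 in Cdkn2a/Braf melanoma and 4466 to 6266 in Cdkn2a/Braf/Lkb1 melanoma. Xist, expressed from the inactive X chromosome of females, was above 8 in 3 of 3 proliferation arrays and 0 of 4 melanoma arrays, so sex and lesion type cannot be told apart in these comparisons. It was also above 8 on both day 50 arrays, so the same holds for Cdkn2a/Braf melanoma against day 50. Among the sorted day 19 cells Xist was above 8 on 1 of 2 arrays of each genotype. Sex was therefore not balanced between day 50 and day 19, and its part was not tested. The part of cell makeup in the Ccnd1, Cdk4 and Cdk6 values was not tested.

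**Figure D3:**
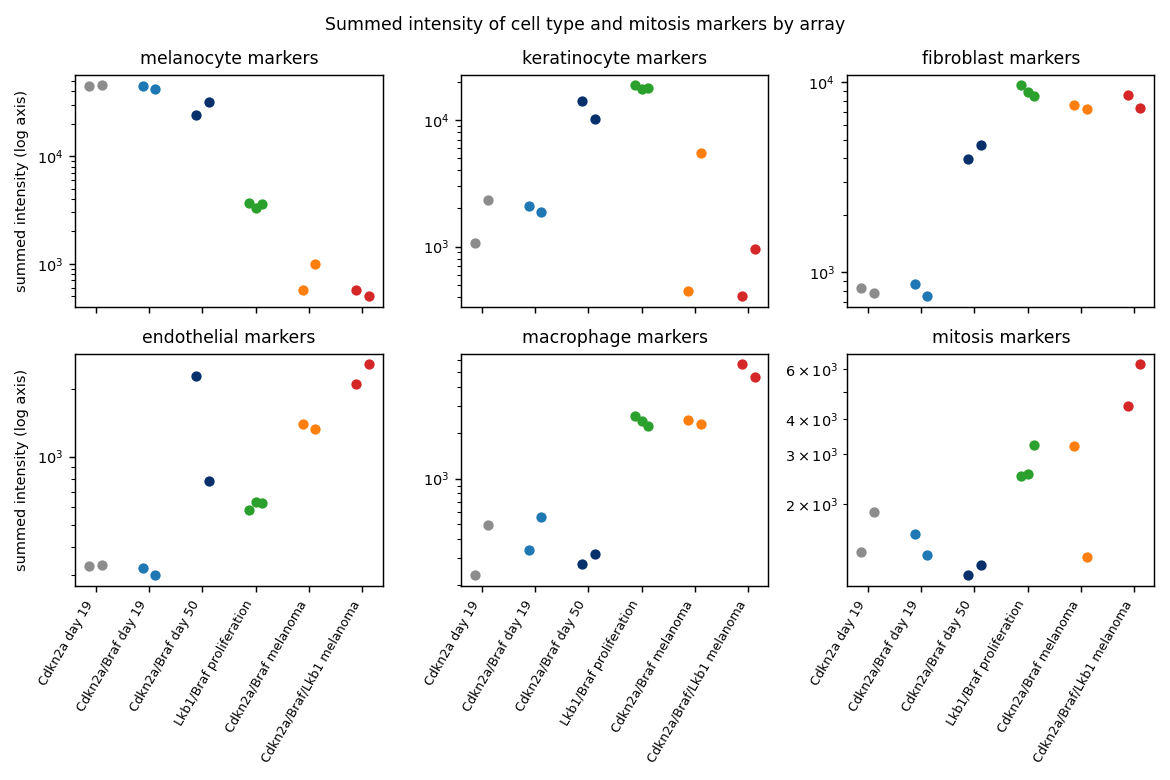
Summed linear intensity of 6 marker lists on each array (log axis), by group. Melanocyte markers lie between 42140 and 45747 in the sorted day 19 cells and at or below 998 in both melanoma groups, and keratinocyte markers are highest in the proliferations.

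Tissue was also set against the arrested sorted cells, which are the same 2 arrays as in the comparison with day 19. In Cdkn2a/Braf melanoma against day 50, Ccnd1, Ccnd2 and Cdk6 were called higher and Myc and Mycn lower, 5 members where 32.4% of all genes were called, 15.5% higher and 16.9% lower. The Ccnd1 difference was 1.85 (SE 0.18, adjusted p = 0.000122) and the Cdk6 difference 2.11 (SE 0.30, adjusted p = 0.00117). In the proliferations against day 50, Ccnd2 and Cdk6 were called higher and Cdk4, Rbl2 and Myc lower, 5 members where 18.3% of all genes were called, 9.11% higher and 9.2% lower. Ccnd1 differed there by -0.23 (95% interval -0.60 to 0.13). With a common interquartile range further members were called lower: Cdk4 (-1.42, adjusted p = 0.000504) and Rb1 (-0.59, adjusted p = 0.042) in Cdkn2a/Braf melanoma, and Ccnd1 (-0.56, adjusted p = 0.0329) and Mycn (-0.57, adjusted p = 0.0261) in the proliferations. Quantile normalization also gave a Cdk4 call in Cdkn2a/Braf melanoma (-0.52, adjusted p = 0.0412) and a Mycn call in the proliferations (-0.54, adjusted p = 0.0362). Median centring gave the same Mycn call (-0.49, adjusted p = 0.0418). The Mycn difference in Cdkn2a/Braf melanoma was -0.70 without melanoma replicate 2 and was not called. In the proliferations, other calls moved with single arrays. The Cdk6 difference of 0.97 (adjusted p = 0.0371) was not called without day 50 replicate 1 (0.55) or without any single proliferation array, and the Rbl2 difference of -0.79 (adjusted p = 0.0387) was not called without day 50 replicate 2 or any single proliferation array. The cell type markers moved with both contrasts: 8 of 8 melanocyte markers were called lower in each, 5 of 5 macrophage markers were called higher in the melanomas and 4 of 5 in the proliferations, and 3 of 6 keratinocyte markers were called lower in the melanomas. Their part in the members' values was not tested. Alleles and material both differ in the contrast of the proliferations with day 50 and cannot be told apart.

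Genes upstream and downstream of the members were described from lists of pathway genes. Of 10 ERK output genes, which include the feedback phosphatases Dusp4 and Dusp6, the Sprouty gene Spry4 and the factor Etv5, 0 were called by limma for the Braf allele at day 19 (0.291% of all genes were). Of the 10, 7 had an unadjusted p under 0.05 (7.25% of all genes had), and the median difference was 0.62 against 0.02 over all genes. Etv5 differed by 2.09 (SE 0.85, adjusted p = 0.633) and Dusp6 by 1.40 (SE 0.30, adjusted p = 0.121). At day 50, 6 of the 10 were called lower and 0 higher, where 14.5% of all genes were called lower, among them Etv5 (-3.10, SE 0.85, adjusted p = 0.0268), Dusp4 (-2.18, SE 0.40, adjusted p = 0.00459) and Dusp6 (-1.07, SE 0.30, adjusted p = 0.0291). The Ccnd1 level differed by 0.11 in the same contrast. The count of 6 ranged from 1 to 6 over the arrays left out in turn, was 1 in sorted cells alone and was 2 with either quantile normalization or a common interquartile range. The list's median stayed between -0.91 and -0.71 with single arrays left out.

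In the melanomas against the proliferations, 6 of 10 ERK output genes in Cdkn2a/Braf melanoma and 8 of 10 in Cdkn2a/Braf/Lkb1 melanoma were called higher and 0 lower, where 12.6% and 20% of all genes were called higher. Dusp4 was higher by 2.16 and 2.17 and Spry4 by 2.13 and 1.78. The count of 6 ran from 4 to 6 with single arrays left out, and the count of 8 was the same with each array left out and 7 with a common interquartile range.

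Among transcripts that Myc is known to drive, the called differences at day 50 were all lower. Of 19 measured MYC target genes 0 were called higher and 6 lower, with a median of -0.53, where 11.1% of all genes were called higher and 14.5% lower. Among the 6 were the RNA polymerase I subunit gene Polr1b (-1.10, SE 0.16, adjusted p = 0.00115), the lactate dehydrogenase gene Ldha (-0.93, SE 0.18, adjusted p = 0.00633) and the spermidine synthase gene Srm (-0.84, SE 0.22, adjusted p = 0.0214). Myc itself differed by 0.67 in the same contrast. The direction of this list depends on the scaling: with a common interquartile range 3 were higher and 2 lower and the median was 0.11, and without any 1 of the 4 arrays the count lower ran from 2 to 7. For the Braf allele at day 19, where Myc was 3.53-fold higher, 0 of the 19 were called by limma (0.291% of all genes were), 2 had an unadjusted p under 0.05 (7.25% of all genes had), and the median was 0.20. In Cdkn2a/Braf/Lkb1 melanoma against the proliferations, where 20% of all genes were called higher and 20.6% lower, 9 of the 19 were higher, including the nucleolar gene Nop16 (1.19, SE 0.15, adjusted p = 0.000379), and 1 was lower, the nucleolin gene Ncl. With a common interquartile range that split was 2 higher and 4 lower, and with single arrays left out the count higher ran from 3 to 9.

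Partners and rivals of Myc were described in the same way. Of 11 measured genes of the Max network, 2 were lower at day 50, Mlxip (-1.29, SE 0.25, adjusted p = 0.00537) and the Myc antagonist Mxi1 (-0.59, SE 0.14, adjusted p = 0.0159), where 14.5% of all genes were called lower; in sorted cells alone 0 were called. In Cdkn2a/Braf/Lkb1 melanoma against the proliferations 1 was higher, the Max partner Mga, and 4 were lower: Mlxipl, Mycl, Mnt and Mxd3, where 20% of all genes were called higher and 20.6% lower. The Myc paralogue Mycl differed by -0.92 (SE 0.20, adjusted p = 0.00492), the same direction as Mycn.

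Downstream of the pocket proteins are the E2F and DP factors. At day 50, 4 of 10 were called lower, where 14.5% of all genes were: the repressors E2f8 (-1.83, SE 0.45, adjusted p = 0.0168) and E2f6 (-1.64, SE 0.21, adjusted p = 0.000566), the activator E2f3 (-1.21, SE 0.34, adjusted p = 0.0298) and the dimer partner Tfdp2. The count was 1 to 3 with single arrays left out, 2 with quantile normalization and 2 in sorted cells alone. Against the proliferations 3 were called higher in Cdkn2a/Braf melanoma (1 to 3 with single arrays left out) and 5 in Cdkn2a/Braf/Lkb1 melanoma (3 to 5), and 0 lower in either. In those comparisons 12.6% and 20% of all genes were called higher. Of 19 measured E2F target genes 0 were called by limma at day 50, where 25.6% of all genes were called. At an unadjusted p under 0.05 there were 4, where 43.4% of all genes passed, and the list's median was -0.44. Ccne2, which encodes a cyclin of Cdk2, was called lower (log2 difference -1.10, adjusted p = 0.0489). That call was lost in sorted cells alone and without at least 1 of the arrays. None of the E2F factors or targets was called for the Braf allele by limma. At an unadjusted p under 0.05 there were 5 of the 10 factors and 0 of the 19 targets, where 7.25% of all genes passed. The median difference of the factors was -0.08.

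In Cdkn2a/Braf/Lkb1 melanoma against Cdkn2a/Braf melanoma, E2f8 was higher by 2.51 (SE 0.45, adjusted p = 0.0182) and the Cdk2 cyclin gene Ccne1 by 1.03 (SE 0.20, adjusted p = 0.0243). The E2f8 call was lost with a common interquartile range, the Ccne1 call with quantile normalization, and each without at least 1 of the arrays. Of the 19 E2F targets 2 were called higher, where 1.83% of all genes were: the thymidylate synthase gene Tyms (1.47, SE 0.20, adjusted p = 0.0059) and the replication licensing gene Mcm3 (1.44, SE 0.31, adjusted p = 0.0404). Both calls were lost without Cdkn2a/Braf melanoma replicate 2. The list's median was 0.82. The list's median was 1.26 without Cdkn2a/Braf melanoma replicate 1 and 0.38 without replicate 2, and it is replicate 2 that had the lower Rbl1 and the lower mitosis markers. Of the CDK inhibitors, Cdkn1b (p27) was lower in the Cdkn2a/Braf/Lkb1 melanomas (difference -1.11, SE 0.21, adjusted p = 0.0266), a call also lost without at least 1 of the arrays. Both melanomas had more Cdkn1b than the proliferations, by 2.15 (SE 0.20, adjusted p = 0.000113) without and 1.03 (SE 0.20, adjusted p = 0.00293) with the Lkb1 alteration, alongside more Cdkn2b (p15), by 1.69 and 1.03, and less Cdkn1c (p57), with differences of -0.96 and -1.04. Of 6 inhibitors measured (Cdkn1a was not), 3 were called higher without and 2 with the alteration, and 1 lower in each. Of all genes 12.6% and 20% were called higher, and 8.88% and 20.6% lower. The count of 2 was 1 with either quantile normalization or a common interquartile range.

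**Figure D4:**
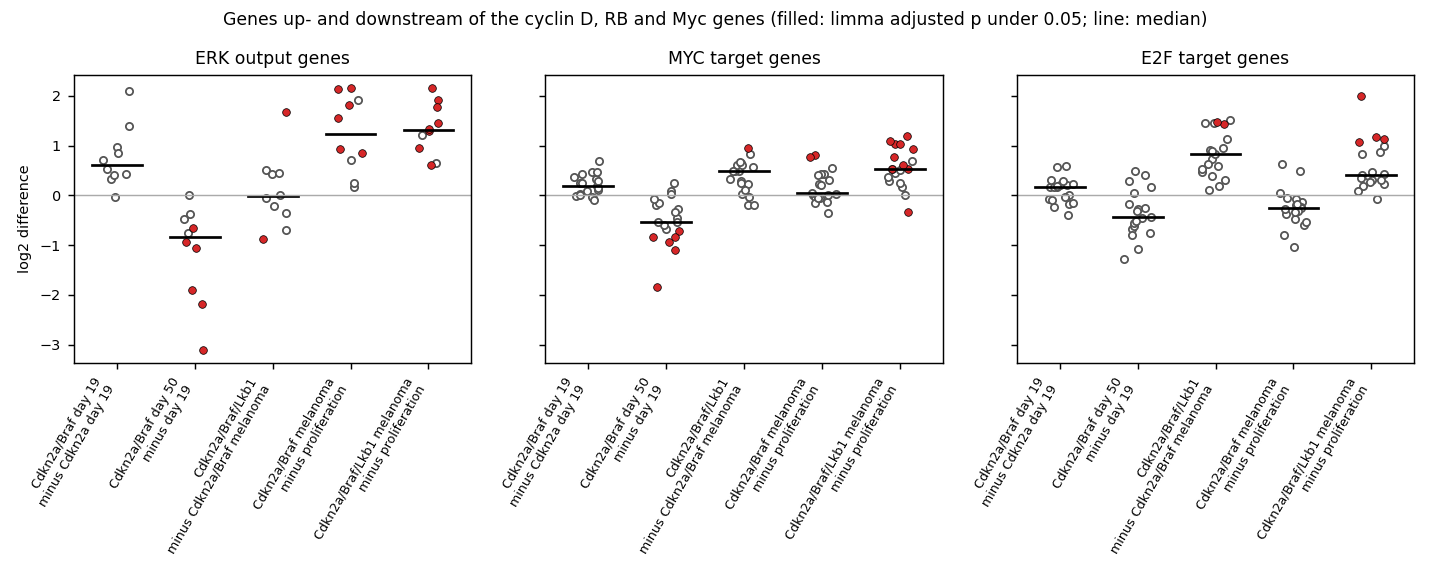
Log2 differences of ERK output, MYC target and E2F target genes in 5 comparisons; each point is a gene, filled where the limma adjusted p was under 0.05, and the line is the list's median. The ERK outputs have a median of -0.84 at day 50 and of 1.24 and 1.32 in the melanomas against the proliferations, and the E2F targets have a median of 0.82 between the melanoma genotypes.

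Of the members, 3 had group means that spanned at least 2 on the log2 scale: Ccnd1, Cdk6 and Myc. For each, the genes with the most similar profile over the 13 arrays were found as the root mean square difference between profiles centred on their own means. For Ccnd1, whose own root mean square deviation was 1.21, they were Sema7a (0.284), Gsap (0.352) and Pdgfrb (0.379). For Cdk6 (own deviation 0.779) they were Rcbtb2 (0.277), Cenpc1 (0.291) and Fndc3b (0.295). For Myc (own deviation 0.779) they were Snora69 (0.430), Sulf2 (0.431) and Sema3c (0.483). Snora69 is a small nucleolar RNA, whose probe set may also read its host transcript.

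The targeted genes were examined on the same arrays. Braf was lower at day 50 than at day 19 (difference -0.72, SE 0.13, adjusted p = 0.00328), and Cdkn2a and Stk11, the gene of Lkb1, had no called difference in that contrast or between the melanoma genotypes, where Stk11 differed by -0.65 (SE 0.39, adjusted p = 0.396). Where the probes lie relative to the altered exons was not known, and the levels were therefore not read as a check of genotype. The labels call the samples of a group biological replicates, and their number, 2 or 3, limits the precision of every value.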

How the data were processed

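Per the labels' protocols, RNeasy columns (Qiagen) gave the total RNA, and NuGEN kits (Ovation V2, Encore) its amplification and labelling. The values deposited by the authors are linear intensity values made with RMA, per the submitters' processing notes; how they came to a linear scale (3.35 to 17698, array medians 68.3 to 80.5) and the RMA version are not stated by any source used here. The file holds 34760 probe sets, of which the platform table pairs 21640 with 1 gene and 1321 with several (left out), while 11799 are unnamed here. This gave 19937 genes, and the 954 with several probe sets were read from the set with the highest mean.

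Levels are log2(intensity + 1), which understates differences of dim genes. A single limma model (version 3.58.1, R 4.3.3) of 6 group means over all 13 arrays gave every difference; its two-sided p-values were adjusted after Benjamini and Hochberg for all genes and called at 0.05, and the fit was tested on simulated data. Tables used pandas 2.3.3 and numpy 2.4.6 in Python 3.11.15, and plots matplotlib 3.10.9. The members and the gene lists were chosen with earlier results of these data known. All 10 members were named in each of the 7 comparisons. From each of the 8 pathway lists, genes with adjusted p under 0.05 could be named, the largest differences first, and uncalled ones are given as examples chosen after their values were seen; for members with a span of at least 2, so were the 3 most similar profiles. Alternatives were median centring, quantile normalization, a common interquartile range, a pseudocount of 16, a filter on dim genes (log2 above 6 in 2 arrays), the mean of probe sets, an intensity trend with robust moderation, arrays of the same material only, the replicate number as a block, and leaving out each array. Each member has 1 probe set, so the mean of probe sets left its value as it was.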

Additional observations from a re-analysis of the deposited data

How the results depend on the processing

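Same-numbered replicates did not deviate together over all genes (correlations of deviations from the group means between -0.117 and 0.060), so no pairing by number was seen. A pairing that moves only some genes was not tested. With the replicate block the members called were 2 at day 50 (4 without it), 1 for the Braf allele (2), 2 for Cdkn2a/Braf melanoma against the proliferations (4) and 3 for the proliferations against day 50 (5). The calls it ended were Cdk6 and Rbl2 at day 50 (adjusted p = 0.0593 and 0.0704), Ccnd1 for the Braf allele (0.0553), Cdk4 and Rbl2 in Cdkn2a/Braf melanoma (0.0947 and 0.0721) and Mycn in Cdkn2a/Braf/Lkb1 melanoma (0.0505) against the proliferations, and Cdk6 and Rbl2 in the proliferations against day 50 (0.101 and 0.125). Between the melanoma genotypes the block left 0 of the E2F and DP factors, cyclin E and CDK2 genes and CDK inhibitors called, ending the E2f8, Ccne1 and Cdkn1b calls. All genes called at day 50 with it were 1370 higher and 2453 lower. The crossed replicate block, chosen after the data were seen, gave 240 higher and 93 lower genes between the melanoma genotypes, against 364 and 146 without a block and 193 and 66 with the plain one, and 0 members under each.

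Counts of members called also moved under other settings. In sorted arrays alone they were 1 at day 50 and 0 for the Braf allele, and over all genes 349 higher and 1153 lower, and 1 and 0 (2211 and 2884, and 47 and 11, with all arrays). With quantile normalization they were 3 and 1 for Cdkn2a/Braf/Lkb1 and Cdkn2a/Braf melanoma against the proliferations (5 and 4), and with a common interquartile range 3 for the former and 1 between the genotypes (0). Leaving out arrays in turn gave 2 to 4 at day 50, 0 to 2 for the Braf allele, 0 to 1 between the genotypes, 3 to 5 and 1 to 3 for the melanomas against the proliferations in the same order, 3 to 5 for the proliferations against day 50 and 4 to 5 for Cdkn2a/Braf melanoma against day 50. The cause was not tested.

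Differences turned in sign as follows, and the cause was not tested. With quantile normalization they were 0.21 for Cdk4 and 0.0153 for Rb1 at day 50, -0.0590 for Ccnd3 and -0.55 for Rb1 in Cdkn2a/Braf/Lkb1 melanoma against the proliferations, -0.41 for Rb1 and -0.35 for Myc in Cdkn2a/Braf melanoma against them, and -0.31 for Rbl2 in that melanoma against day 50. With a common interquartile range they were 1.07 for Cdk4 and 0.0793 for Rb1 at day 50, -0.0182 for Cdk4 with the Braf allele, -0.29 for Ccnd1 and -0.0821 for Cdk6 between the genotypes, -0.15 for Cdk4 and -0.44 for Rb1 in Cdkn2a/Braf/Lkb1 melanoma, and -0.32 for Ccnd2, -0.17 for Cdk4, -0.26 for Rb1 and -0.21 for Myc in Cdkn2a/Braf melanoma against the proliferations, and -0.37 for Rbl2 against day 50. Median centring gave 0.0321 for Rb1 between the genotypes.

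Some uncalled differences turned with single arrays left out. At day 50 these were Ccnd1 (-0.10 to 0.31) and Ccnd3 (-0.34 to 0.57). For the Braf allele they were Cdk4 (-0.0199 to 0.24), Cdk6 (-0.57 to 0.0119), Rb1 (-0.37 to 0.13), Rbl1 (-0.0602 to 0.45), Rbl2 (-0.0284 to 0.34) and Mycn (-0.12 to 0.26). Between the genotypes they were Cdk6 (-0.14 to 0.46) and Rb1 (-0.31 to 0.29). Against the proliferations they were Ccnd2 (-1.03 to 0.0328) and Rb1 (-0.27 to 0.34) in Cdkn2a/Braf/Lkb1 melanoma, and Rb1 (-0.0108 to 0.13), Rbl1 (-0.91 to 0.10) and Myc (-0.19 to 0.41) in Cdkn2a/Braf melanoma. In the latter against day 50 they were Ccnd3 (-0.56 to 0.35), Rb1 (-0.11 to 0.0271), Rbl1 (-0.24 to 0.77) and Rbl2 (-0.24 to 0.43).

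Scaling moved the balance of all genes: the median difference at day 50 was 0.17 as given, 0.07 with median centring and -0.05 with a common interquartile range, and median centring gave 1034 higher and 3263 lower genes. In Cdkn2a/Braf/Lkb1 melanoma against the proliferations it gave 4802 and 2801 (3991 and 4099 as given), and in the proliferations against day 50 1637 and 3146 (1817 and 1835). Replicates at day 50 differed most between arrays, with an SD over genes of 0.703 against 0.273 to 0.404 in the other groups.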
